A study of Mus musculus with 9 samples.

Results

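The genes described here are 10 integrin subunit genes of leukocytes: the 7 alpha chain genes Itga4, Itga5, Itga6, Itgal, Itgam, Itgav and Itgax and the 3 beta chain genes Itgb1, Itgb2 and Itgb7. They were taken by symbol from the 50600 genes of the deposited tables, and all 10 were found. RNA was sequenced from RAW-Blue, an established mouse macrophage line that carries a reporter of inflammatory signalling and was grown with Normocin and Zeocin in every group. Cells with no stimulus (None, 3 libraries) were compared with cells given lipopolysaccharide, the endotoxin of bacterial outer membranes, at 1 µg/ml for 24 hours (LPS, 3 libraries). Another group of 3 samples, LPS-PjELNs, was given Peucedanum japonicum (plant) vesicles, 16 hours ahead of the stimulus, and was not analysed here. The labels do not say whether replicates were separate cultures, so the p-values reflect no more than the spread of these samples, which may be technical.

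Integrins are heterodimers of an alpha and a beta chain that hold cells to matrix, to other cells and to opsonised particles. On leukocytes Itgb2 (CD18) pairs with Itgal (CD11a) as LFA-1, with Itgam (CD11b) as the complement receptor Mac-1, and with Itgax (CD11c). Itga4 (CD49d) pairs with Itgb1 or Itgb7 and binds VCAM-1, MAdCAM-1 and fibronectin. With Itgb1, Itga5 is a fibronectin receptor and Itga6 a laminin receptor, while Itgav pairs with several beta chains and binds vitronectin, osteopontin and latent TGF-beta.

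The libraries held 14650843 to 17665200 counts. The groups were parted by the first principal component, with 90.9% of the variance. LPS replicate 1 stood apart on the second, with 3.23%, at 23.0 against -7.49 and -16.0 for LPS replicates 2 and 3. The summed level of 10 macrophage markers was 12307 to 13864 CPM (counts scaled to a common library size after TMM) in None and 21606 to 23217 CPM in LPS. Its members did not move alike: 3 rose, among them Lyz2 (8337 to 16610 CPM) and Cd14 (532 to 2903 CPM), and 3 fell, Csf1r (1787 to 713 CPM), Ptprc and Tyrobp. Mertk was the lowest, with 0 counts in None and 2 in LPS. Defining markers of T cells (Cd3e, Cd3g, Cd3d, Cd8a), B cells (Ms4a1) and neutrophils (Ly6g, Mpo) had 0 counts in all 6 libraries. The T cell list of 7 genes summed to 1.40 to 2.22 CPM in None and 3.84 to 6.42 CPM in LPS. Lck carried this rise, with 93 counts in None and 197 in LPS (edgeR adjusted p = 2.72e-04), while Cd4 had 4 and 0. Of the B cell markers, Cd79a rose from 0.228 to 1.29 CPM, on 13 and 54 counts (edgeR adjusted p = 1.28e-04). The summed neutrophil list of 6 genes ran from 0.155 to 0.271 CPM in None and from 14.1 to 17.5 CPM in LPS. S100a8 carried this rise, with 8 counts in None and 642 in LPS, while S100a9 had 0 and 4, Camp 0 and 1, and Elane 5 and 1. The endothelial list of 5 genes summed to 10.55 to 14.81 CPM in None and 8.06 to 10.87 CPM in LPS. Vwf made up most of it, with 714 counts in None and 388 in LPS (edgeR adjusted p = 0.0253). Its call held in 2 of the 6 fits that left out 1 library. Of the fibroblast markers, Dcn had 0 counts in None and 50 in LPS and was not tested. Mitochondrially encoded genes took 3.84% to 4.28% of counts in None and 2.46% to 2.696% in LPS, and their part in the results was not tested.

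Promoter windows of 250 bases before the RefSeq gene start were read from the RefSeq table (GRCm38.p6), which held 7 of the 10 members and not Itga6, Itgal and Itgb2. The windows of 4 members are printed 5′ to 3′ on the strand of the gene. Itga4 and Itga5 are shown as the members with the largest decrease and increase, and Itgam and Itgax as neighbours on chromosome 7 that moved in opposite directions. They lie at chr2:79255176-79255425 (plus strand), chr15:103366792-103367041 (minus strand), chr7:128062390-128062639 (plus strand) and chr7:128129300-128129549 (plus strand). Positions are counted back from the RefSeq start, which for Itga4, Itga5 and Itgax is not the gene start of the deposited annotation given with each gene further on. Capitals mark matches, on either strand, to 6 motifs: GAGGAA (a core bound by ETS factors such as PU.1), GGGCGG (GC box), TGANTCA (AP-1), TGTGGT (RUNX), CACGTG (E-box) and the kappaB motif.
Itga4: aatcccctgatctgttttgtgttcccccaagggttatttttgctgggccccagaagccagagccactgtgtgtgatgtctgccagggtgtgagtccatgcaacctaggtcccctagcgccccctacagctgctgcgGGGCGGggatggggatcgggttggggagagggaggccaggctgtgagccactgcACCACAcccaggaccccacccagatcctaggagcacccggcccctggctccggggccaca
Itga5: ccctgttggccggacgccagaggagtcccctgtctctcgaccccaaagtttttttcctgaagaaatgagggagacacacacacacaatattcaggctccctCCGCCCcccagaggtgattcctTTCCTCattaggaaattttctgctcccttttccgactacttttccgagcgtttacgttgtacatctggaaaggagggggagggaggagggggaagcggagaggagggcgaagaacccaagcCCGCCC
Itgam: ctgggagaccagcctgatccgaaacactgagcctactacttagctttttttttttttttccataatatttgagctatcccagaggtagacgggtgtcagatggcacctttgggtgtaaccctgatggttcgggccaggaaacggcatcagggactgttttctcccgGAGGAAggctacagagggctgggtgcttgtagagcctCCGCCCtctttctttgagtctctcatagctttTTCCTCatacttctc
Itgax: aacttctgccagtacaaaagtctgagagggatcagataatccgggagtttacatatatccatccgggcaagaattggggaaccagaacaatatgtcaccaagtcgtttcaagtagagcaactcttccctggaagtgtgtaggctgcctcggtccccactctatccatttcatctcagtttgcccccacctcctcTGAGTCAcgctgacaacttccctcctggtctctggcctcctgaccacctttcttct
In the Itga4 window a GC box began 114 bases before the RefSeq start, and TGTGGT lay on the opposite strand at 60 bases. All matches of the Itga5 window were on the opposite strand, GAGGAA at 127 bases and GC boxes at 149 and 6 bases. The Itgam window held GAGGAA at 84 bases and, on the opposite strand, at 15 bases, with a GC box at 47. The Itgax window held a palindromic AP-1 match at 56 bases and none of the other motifs. Over the 7 windows, GAGGAA was found in 4 (Itga5, Itgam, Itgav and Itgb1) against 23.3% of all 32851 windows, and GGGCGG in 4 (Itga4, Itga5, Itgam and Itgb1) against 32.7%. TGTGGT was found in 1 against 14.0% and TGANTCA in 1 against 6.75%. The kappaB motif and CACGTG, held by 1.41% and 6.02% of all windows, were in 0 of the 7. The kappaB motif was searched in 1 form only, with a fixed run of T bases. Other forms were not searched, so this result cannot show that the windows lack kappaB sites. Matches to different motifs shared no bases in the printed windows. Binding was not measured.

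The comparison of LPS with None asked how endotoxin changed the integrin transcripts of these cells. Stimulated cells held much less Itga4 and Itgax and less Itgb7, and more Itga5, Itga6, Itgb2, Itgav and Itgam. All 10 members passed the filter on low counts. By the quasi-likelihood test of edgeR, with p-values adjusted by Benjamini-Hochberg, 9 members were called, 6 higher and 3 lower, where 69.1% of the 11916 genes tested were called, 34.0% higher and 35.1% lower. Calls of at least 2-fold were made for 7 members, 5 higher and 2 lower, against 22.9% of all genes tested, 11.1% higher and 11.8% lower. CPM of the groups did not overlap for 9 members, against 73.6% of all genes tested. The median log2 fold change of the members was 0.65 and of all genes tested -0.03, and the median absolute log2 fold change was 1.82 against 0.48. Scaling by library totals moved the median of all genes by -0.26 on the log2 scale, and of the 9 calls only that of Itgb1 was lost under it.

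**Figure D1:**
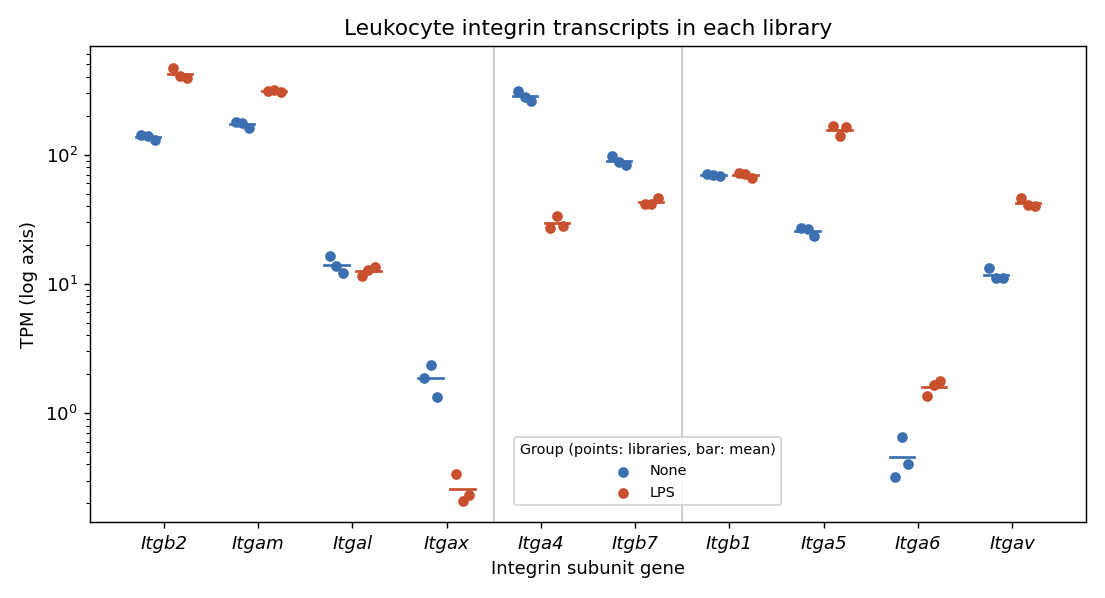
TPM (log axis) of each gene in the 3 None (blue) and 3 LPS (red) libraries; points are libraries, bars are means, and vertical lines part the Itgb2 family, the Itga4 and Itgb7 pair, and Itgb1 with its other partners. Itga4 was highest in None (mean 285 TPM) and Itgb2 in LPS (mean 423 TPM), and the groups overlap for Itgal and Itgb1.

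Of the Itgb2 family, the beta chain and Itgam rose, Itgal was not called and Itgax fell. Itgb2 (ENSMUSG00000000290, chr10:77530252-77565686, plus strand, GRCm38), the shared beta chain, was at 143, 140.0 and 129 TPM, a level scaled for transcript length, in None and at 472, 403 and 394 TPM in LPS. Every LPS library lay above every None library, and LPS replicate 1 was the highest. Between the groups Itgb2 rose from 277 ± 16.0 to 1000 ± 99.6 CPM (SD, n = 3), 3.61-fold, a log2 fold change of 1.85 (SE 0.09, adjusted p = 3.16e-09 by edgeR). In bulk RNA, fewer cells with a transcript and less of it per cell cannot be told apart, here and for every member.

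Itgam (ENSMUSG00000030786, chr7:128062640-128118491, plus strand), the alpha chain of Mac-1, was at 179, 175 and 162 TPM in None and at 312, 314 and 306 TPM in LPS. The 3 LPS libraries lay close together and above all None libraries. In CPM, Itgam rose from 610.0 ± 29.2 to 1288 ± 23.9 (SD, n = 3), 2.11-fold, with a log2 fold change of 1.08 (SE 0.07, edgeR adjusted p = 7.78e-08). The predicted gene Gm49368 overlaps Itgam on the same strand, and its counts, 209 in None and 547 in LPS, were 0.6003% and 1.02% of those of Itgam, so reads shared by both could have been split between them.

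Itgal (ENSMUSG00000030830, chr7:127296260-127335137, plus strand), the alpha chain of LFA-1, was at 16.4, 13.7 and 12.2 TPM in None and at 11.5, 12.8 and 13.4 TPM in LPS. The groups overlapped in TPM and in CPM. Itgal had a log2 fold change of 0.02 (SE 0.11, 95% interval -0.21 to 0.26, edgeR adjusted p = 0.848), and its sign depended on the scaling. Its neighbours on chromosome 7 were Sephs2, which fell from 213 to 150.2 CPM (edgeR adjusted p = 9.85e-05), and Zfp768, at 18.0 and 15.6 CPM (adjusted p = 0.0978).

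Itgax (ENSMUSG00000030789, chr7:128129547-128150657, plus strand), the CD11c chain that also marks dendritic cells, was a minor transcript at 1.87, 2.37 and 1.32 TPM in None and 0.34, 0.21 and 0.23 TPM in LPS. All None libraries lay above all LPS libraries. It rested on few reads, 283 counts in None and 39 in LPS. From 4.97 ± 0.782 to 0.933 ± 0.248 CPM (SD, n = 3), Itgax fell 5.28-fold, a log2 fold change of -2.40 (SE 0.25, edgeR adjusted p = 2.69e-06). On log2(TPM + 1), which understates the change of low genes, the log2 fold change was -1.16. The dendritic cell list of 5 genes summed to 1.24 to 1.68 CPM in None and 0.654 to 1.15 CPM in LPS, and its part in the change was not tested. Itgad, the next integrin gene on the chromosome, had 0 counts in every library.

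The Itga4 and Itgb7 pair fell together. Itga4 (ENSMUSG00000027009, chr2:79255500-79333123, plus strand) was at 311, 282 and 262 TPM in None and at 27.0, 33.7 and 27.9 TPM in LPS. The lowest None library was far above the highest LPS library, and the rank of Itga4 among all genes by TPM went from 361 to 419 in the None libraries to 3182 to 3738 in the LPS libraries. In CPM, Itga4 fell from 2146 ± 160.4 to 259 ± 24.6 (SD, n = 3), 8.29-fold, a log2 fold change of -3.05 (SE 0.10, 95% interval -3.26 to -2.84, edgeR adjusted p = 8.01e-11). By log2 fold change 116 tested genes fell further, but by CPM lost between the group means, 1887 for Itga4, only 7 tested genes lost more.

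The last 594 bases of Itga4 overlap Cerkl, a ceramide kinase-like gene on the opposite strand. Cerkl fell with Itga4, from 38.7 ± 4.76 to 5.16 ± 1.38 CPM (SD, n = 3, edgeR adjusted p = 8.74e-09), and its counts were 1.80% of those of Itga4 in None and 1.99% in LPS. The sources used here do not state whether counting used strand. Reads of the shared bases therefore cannot be assigned to either gene, and the change of Cerkl is uncertain. Itgb7 (ENSMUSG00000001281, chr15:102215995-102231944, minus strand), the beta chain of the gut-homing integrin, was at 98.4, 88.2 and 83.5 TPM in None and at 41.2, 41.7 and 46.5 TPM in LPS. The groups were apart, with little spread in LPS. Itgb7 fell from 174 ± 14.1 to 95.7 ± 9.64 CPM (SD, n = 3), 1.82-fold, a log2 fold change of -0.86 (SE 0.09, edgeR adjusted p = 2.75e-06).

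Itgb1 and its other partners did not move alike. Itgb1 (ENSMUSG00000025809, chr8:128685654-128733200, plus strand), the beta chain most widely shared among alpha chains, was at 70.3, 69.2 and 68.1 TPM in None and at 71.5, 70.8 and 65.8 TPM in LPS, and the groups overlapped. On TMM-scaled counts its log2 fold change was 0.23 (SE 0.07, 95% interval 0.08 to 0.38, edgeR adjusted p = 0.00841). This call was lost with library totals alone (log2 fold change -0.03, adjusted p = 0.706), on log2(TPM + 1) in limma (0.00, adjusted p = 0.975) and without None replicate 2 (0.21, adjusted p = 0.0571).

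Itga5 (ENSMUSG00000000555, chr15:103344286-103366763, minus strand), the fibronectin receptor chain, was at 26.9, 26.8 and 23.7 TPM in None and at 167, 139 and 164 TPM in LPS. LPS replicate 2 was the lowest of its group and still far above None. From 86.8 ± 4.63 to 616 ± 72.7 CPM (SD, n = 3), Itga5 rose 7.10-fold, a log2 fold change of 2.83 (SE 0.10, 95% interval 2.61 to 3.04, edgeR adjusted p = 1.61e-10), and 338 tested genes rose further. Itgav (ENSMUSG00000027087, chr2:83724397-83806916, plus strand), the vitronectin receptor chain, was at 13.2, 11.2 and 11.04 TPM in None and at 46.5, 40.6 and 40.1 TPM in LPS. Its groups were apart, with LPS replicate 1 highest. Itgav rose from 46.2 ± 1.28 to 160.0 ± 29.96 CPM (SD, n = 3), 3.46-fold, a log2 fold change of 1.79 (SE 0.11, edgeR adjusted p = 3.61e-08).

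Itga6 (ENSMUSG00000027111, chr2:71786940-71856771, plus strand), the laminin receptor chain, was near the limit of detection at 0.32, 0.65 and 0.40 TPM in None and reached 1.35, 1.66 and 1.78 TPM in LPS. The groups did not overlap, on 68 counts in None and 210 in LPS. Itga6 rose from 1.19 ± 0.396 to 5.04 ± 0.859 CPM (SD, n = 3), 4.22-fold, a log2 fold change of 2.08 (SE 0.25, 95% interval 1.53 to 2.63, edgeR adjusted p = 1.17e-05). On log2(TPM + 1) the log2 fold change was 0.84.

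**Figure D2:**
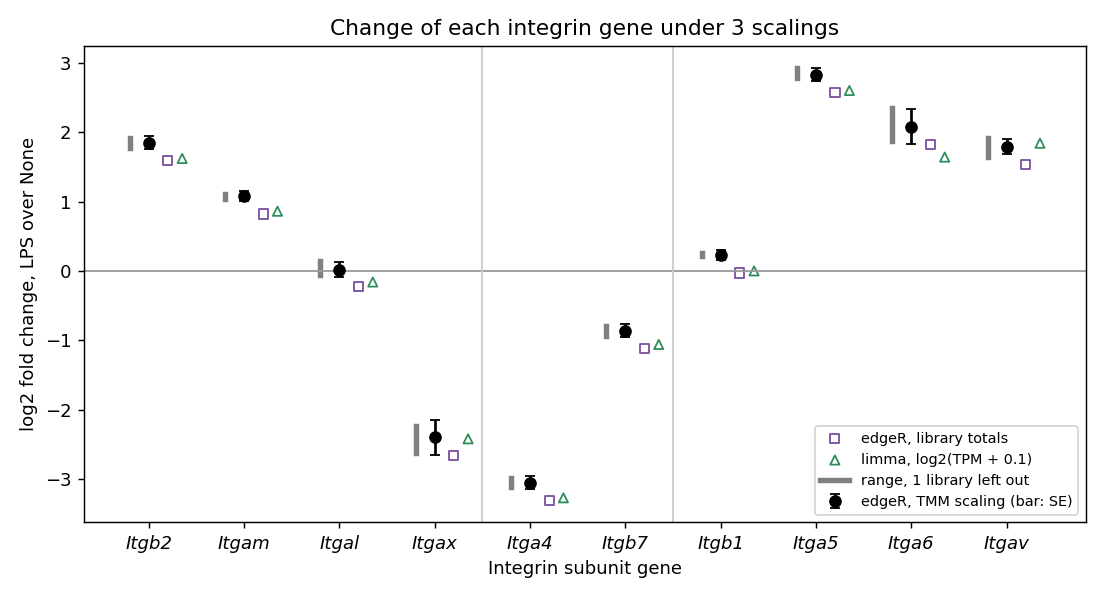
Log2 fold change of LPS over None for each gene: black points with SE bars from edgeR with TMM scaling, squares with library totals alone, triangles from limma on log2(TPM + 0.1), and grey bars the range when 1 library was left out. Itga4 (-3.05) and Itga5 (2.83) stand at the ends under each scaling shown, and Itgal and Itgb1 lie around 0.

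Per transcript length, the order of the genes changed. In None it ran Itga4, Itgam, Itgb2, Itgb7, Itgb1, Itga5, Itgal, Itgav, Itgax and Itga6, and only Itgal and Itgav were neighbours whose libraries overlapped. In LPS it ran Itgb2, Itgam, Itga5, Itgb1, Itgb7, Itgav, Itga4, Itgal, Itga6 and Itgax, and only Itgb7 and Itgav overlapped. Itga4 thus moved from place 1 to place 7 and Itga5 from place 6 to place 3.

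The summed TPM of the 10 members was 860, 809 and 754 in None and 1151, 1058 and 1059 in LPS, 1.35 times as high on average. On CPM, which is not scaled for length, the sum was 3590 in None and 3704 in LPS. Without Itga4, the other 9 summed to 522 ± 29.0 TPM in None and 1060 ± 55.5 TPM in LPS (SD, n = 3), 2.03 times as high. The groups did not overlap in either sum, nor in any share or ratio of TPM given next, and each had an exact two-sided permutation p of 0.10, the smallest that 3 against 3 libraries allow.

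Itga4 made up 55.8% ± 0.850 of the summed TPM of the 7 alpha chains in None and 5.35% ± 0.772 in LPS (SD, n = 3). Itgam made up 33.7% ± 0.932 and 56.1% ± 1.53, and Itga5 5.05% ± 0.176 and 28.3% ± 2.23. The leading alpha chain was therefore Itga4 in each None library and Itgam in each LPS library. Itgav went from 2.31% ± 0.107 to 7.66% ± 0.501 and Itga6 from 0.0901% ± 0.0347 to 0.289% ± 0.0444, while Itgax went from 0.361% ± 0.0939 to 0.0468% ± 0.0116. The share of Itgal, 2.75% ± 0.215 in None and 2.27% ± 0.215 in LPS, had the opposite direction when computed on CPM. On CPM the shares of Itga4 were 72.8% in None and 10.9% in LPS, those of Itgam 20.7% and 54.2%, and those of Itga5 2.95% and 25.8%, in the same directions. The ratio of Itga4 to Itga5 TPM went from 11.1 ± 0.537 to 0.192 ± 0.0442.

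**Figure D3:**
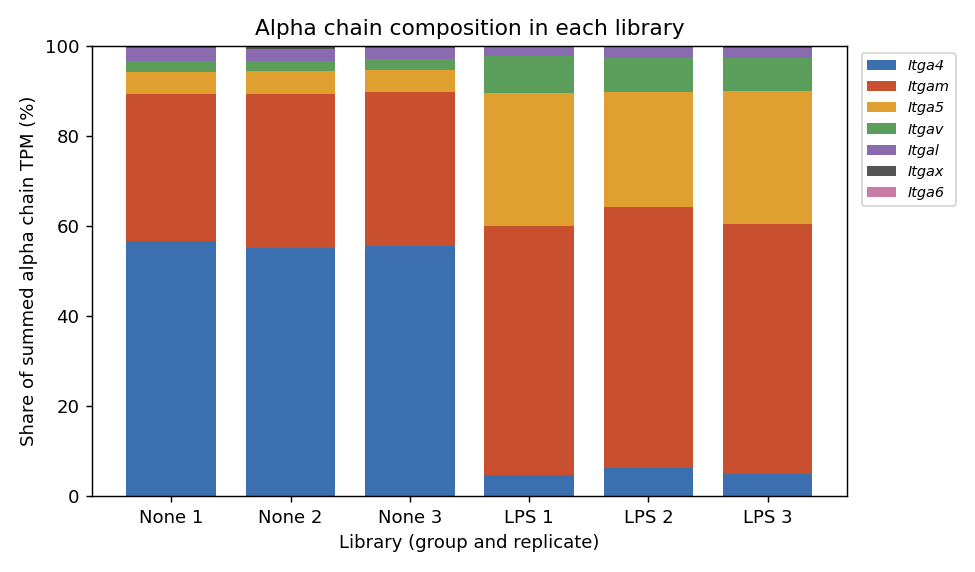
Share of each alpha chain in the summed alpha chain TPM (percent, stacked to 100) in each None and LPS library. Itga4 fills 55.1% to 56.8% of the None bars and 4.77% to 6.22% of the LPS bars; Itgax and Itga6 are too small to see.

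Alpha chains were also set against their beta chain. The 3 partners Itgal, Itgam and Itgax summed to 1.38, 1.36 and 1.35 TPM per TPM of Itgb2 in None and to 0.687, 0.810 and 0.810 in LPS. In TPM, Itgb2 thus went from below the sum of its partners to above it. On CPM the ratio was 2.40 in None and 1.35 in LPS, above 1 in both. Itga4, Itga5, Itga6 and Itgav summed to 4.67 ± 0.321 per Itgb1 in None and 3.32 ± 0.259 in LPS (SD, n = 3), and on CPM to 11.7 and 4.55. Without Itga4 the ratio of TPM went from 0.549 ± 0.0307 to 2.90 ± 0.295. Only members were summed, so Itga7, at 4.33 TPM in None and 21.1 TPM in LPS, was left out. Itga4 and Itgav, which also pair with other beta chains, were counted in full. Itga4 per Itgb7 went from 3.17 ± 0.0244 to 0.688 ± 0.108. These are ratios of transcripts, and protein pairing was not measured.

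**Figure D4:**
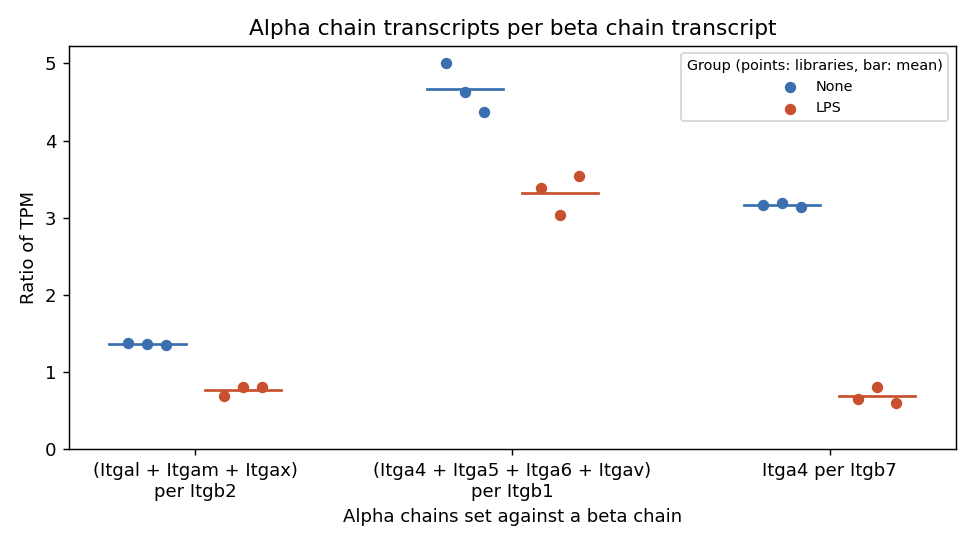
Ratio of summed alpha chain TPM to the TPM of a beta chain in each None (blue) and LPS (red) library; points are libraries and bars are means. All 3 ratios are lower in LPS, with Itga4 per Itgb7 going from 3.17 to 0.688 on average.

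The genes most like Itga4 and Itga5 in pattern were sought among 9316 tested genes with a mean of at least 5 CPM, by the root mean square difference in log2 CPM over the 6 libraries after centring on None. This difference is small only for genes with a similar fold change, so the folds given next follow from the choice. For Itga4 they were Gpr183 (difference 0.13), Hpgds (0.13) and Plekhg5 (0.14), with 9.09-fold, 8.28-fold and 8.52-fold lower CPM in LPS. For Itga5 they were Micall2 (0.04), Hmox1 (0.06) and Prdx5 (0.06), with 6.93-fold, 7.34-fold and 6.80-fold higher CPM in LPS.

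Among 17 other integrin subunit genes, 3 had enough counts to test, and 1 rose and 1 fell by edgeR. Itga7, a laminin receptor chain, rose from 4.50 ± 0.156 to 26.2 ± 2.71 CPM (SD, n = 3), 5.81-fold (adjusted p = 2.21e-09). Itgb5, a partner of Itgav, fell from 106 ± 5.41 to 53.1 ± 4.002 CPM, 1.998-fold (adjusted p = 2.22e-07). Itga10 had a log2 fold change of -0.06 (adjusted p = 0.889), and 8 genes, among them Itgb6 and Itgb8, had 0 counts in every library. Itgb3, the other partner of Itgav best known in bone-resorbing cells, had 0 counts in None and 1 in LPS.

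Of 32 integrin ligand genes, 10 were tested, and 8 rose and 1 fell by edgeR (6 and 1 with library totals alone), with a median log2 fold change of 0.67. Spp1, osteopontin, rose from 933 ± 184 to 42748 ± 3232 CPM (SD, n = 3, adjusted p = 3.35e-11). Icam1, the ligand of LFA-1 and Mac-1, rose from 54.7 ± 1.90 to 88.9 ± 11.98 CPM (adjusted p = 2.32e-05). Icam2, another LFA-1 ligand, fell from 3.01 ± 0.748 to 0.481 ± 0.338 CPM (adjusted p = 5.06e-05). Lamc1, a laminin chain, rose 5.5-fold, Icam5 7.34-fold and Tgfb1 2.60-fold. Icam5 was low in None, at 1.61 CPM, with a log2 fold change of 2.88 by edgeR and 1.69 on log2(TPM + 1). The Itga4 ligand Vcam1 had 0 counts in None and 2 in LPS, and Madcam1 and Fn1, the fibronectin gene, had 0 in all 6 libraries.

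The list of integrin activation from the inside of the cell held 26 genes, some that promote activation and some, such as Rasa3, that restrain it. Of these, 20 were tested, and 6 rose and 8 fell (5 and 12 with library totals alone), with a median log2 fold change of -0.13. Activation itself was not measured. Rasgrp2, an activator of Rap1, fell 6.17-fold, Tln2 3.60-fold, Kank2 3.58-fold, Rasa3 2.83-fold and Rassf5, the Rap1 effector RAPL, 2.24-fold. Rasgrp2 rested on 53 counts in None and 6 in LPS, and its call was lost on log2(TPM + 1) in limma (log2 fold change -0.68, adjusted p = 0.132). Rap1b rose 2.36-fold. Tln1, the main leukocyte talin, was at 661 ± 39.0 CPM in None and 596 ± 44.3 in LPS (SD, n = 3, edgeR adjusted p = 0.125), and was called lower with library totals alone (log2 fold change -0.41). Fermt3, the leukocyte kindlin, rose from 254 ± 9.80 to 315 ± 10.98 CPM (edgeR adjusted p = 0.0019), a call lost with library totals alone (log2 fold change 0.05, adjusted p = 0.53).

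Of 39 genes of integrin signalling and focal adhesions, 37 were tested, and 20 rose and 11 fell (13 and 15 with library totals alone), with a median log2 fold change of 0.23. Src, a kinase of adhesion sites, rose from 0.455 ± 0.0547 to 29.4 ± 10.3 CPM and Tns1, a tensin, fell from 8.75 ± 2.47 to 0.240 ± 0.0423 CPM (SD, n = 3, edgeR adjusted p = 5.56e-09 and 7.11e-08). Lims2, Bcar1, Actn1 and Parvb rose 14.1-fold, 4.397-fold, 3.26-fold and 2.99-fold. Lims2 and Bcar1 were low in None, at 2.33 and 2.38 CPM. Their log2 fold changes were 3.81 and 2.14 by edgeR and 3.09 and 1.24 on log2(TPM + 1). Of 21 genes of integrin trafficking, 19 were tested, and 13 rose and 1 fell (12 and 4 with library totals alone), with a median of 0.64. The largest rises there were Ehd1 (11.7-fold), Acap1 (6.48-fold) and Dab2 (4.89-fold), an endocytic adaptor.

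Of 20 membrane partners of integrins, 18 were tested, and 11 rose and 5 fell (9 and 7 with library totals alone), with a median of 0.65. Plaur, the urokinase receptor, which associates with Mac-1, rose from 25.6 ± 1.11 to 701 ± 93.6 CPM (SD, n = 3), 27.4-fold (edgeR adjusted p = 1.04e-11). Cd47, which associates with Itgav integrins, rose 2.66-fold, and the tetraspanins Cd9 and Cd53 rose 3.30-fold and 2.64-fold. The tetraspanins Cd63, Cd82 and Tspan4 also rose, 2.39-fold, 1.82-fold and 1.22-fold, and the call of Tspan4 was lost with library totals alone. The other tested tetraspanins did not rise. Cd81 fell 2.53-fold and Tspan14 2.37-fold, and Cd37 and Cd151 were not called (edgeR adjusted p = 0.573 and 0.928). The other partners that fell were Sirpa, a receptor of Cd47 (2.43-fold), Lrp1 (1.52-fold) and Ptprc (1.38-fold). For comparison with each list, 34.0% of all 11916 genes tested rose and 35.1% fell, with a median log2 fold change of -0.03. With library totals alone, 2679 of all genes tested rose and 6076 fell.

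**Figure D5:**
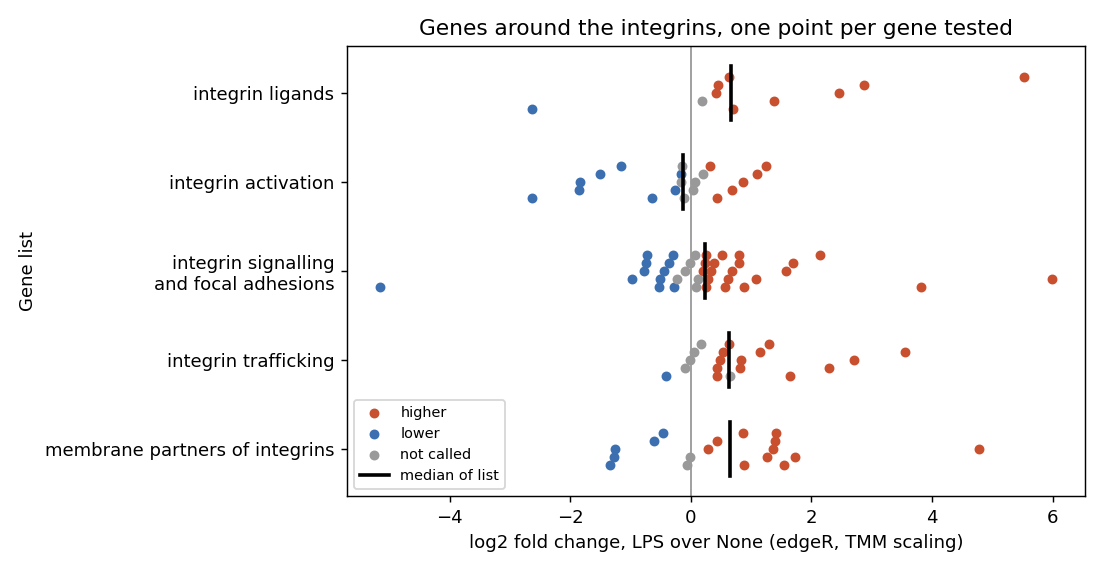
Log2 fold change of LPS over None for each tested gene of 5 lists (red higher, blue lower, grey not called; black bar the median of the list; vertical spread only separates points). Spp1 (5.52), Src (5.99) and Plaur (4.78) lie farthest right in their lists, and Tns1 (-5.15) farthest left.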

How the data were processed

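RNA of 3 None and 3 LPS libraries was analysed; LPS-PjELNs was not analysed here. The deposited tables hold TPM and RSEM expected counts per gene on GRCm38. Per the submitters' processing notes, STAR 2.7.10a and RSEM 1.3.1 were used. A further 12 library columns, whose names match no label, were not used. Expected counts were rounded, filtered with filterByExpr (minimum count 10, total 15), scaled by TMM and tested with edgeR 4.0.16 (quasi-likelihood, R 4.3.3), with Benjamini-Hochberg adjustment over 11916 genes and a threshold of 0.05. SE is the absolute log2 fold change over the root of F. The script was tested on simulated data. TPM served for levels, shares and ratios, with exact permutation tests. The members and lists were chosen with earlier results of these data known. Named were all members, tested subunits, up to 6 called genes per list with the largest change, direct partners, neighbours and the 3 genes nearest in pattern; a few genes at 0, some markers and membrane partners were added after their values were seen. Alternatives were RLE, library totals, DESeq2 1.42.0, other filters, limma 3.58.1 on log2(TPM + 1) or log2(TPM + 0.1), a replicate block and leaving out each library. Counts without a gene symbol were 0.0231% to 0.0318% of each library.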

Additional observations from a re-analysis of the deposited data

How the results depend on the processing

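Of the 10 members, 8 kept their call and direction in all 15 alternatives, and the exceptions were Itgal and Itgb1. The size moved for the low genes on log2(TPM + 1), where Itga6 had 0.84 and Itgax -1.16, against 1.64 and -2.42 on log2(TPM + 0.1). Itgal, never called, had a log2 fold change of -0.23 with library totals alone, -0.15, -0.16 and -0.15 on log2(TPM + 1), log2(TPM + 0.1) and log2(TPM + 1) without a filter, and -0.00, -0.06 and -0.05 without None replicate 2, None replicate 3 and LPS replicate 3, within a range of -0.06 to 0.14 when 1 library was left out. Itgb1 had -0.03 with library totals alone. Genes called higher numbered 4052, against 2679 with library totals alone, 2637 on log2(TPM + 1) and 2626 on log2(TPM + 0.1), and the higher share of calls was 49.2%, 30.6%, 35.5% and 35.6%. On CPM in place of TPM, the log2 ratio of LPS to None was 0.04 for the summed members, -1.36 for alpha chains per Itgb1 and 0.34 for the share of Itgal. The other shares kept their direction, at -2.74 for Itga4, 3.13 for Itga5, 2.38 for Itga6, 1.38 for Itgam, 2.10 for Itgav and -2.10 for Itgax. Leaving out 1 library gave 7507 to 8103 called genes, 8 to 9 called members, and log2 ratios of 0.38 to 0.48 for the summed TPM, -0.87 to -0.75 per Itgb2 and -0.54 to -0.43 per Itgb1. Deviations of same-numbered libraries from their group means correlated at 0.0825, -0.0198 and 0.00954, and not every library correlated best with its own number. With 3 libraries per group, these correlations cannot show whether the libraries were paired. With a replicate block 8362 genes and 9 members were called, and Itga4 had -3.05. The 39 counts of Itgax in LPS and the 68 of Itga6 in None limit the precision of both.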

Other observations

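Of 14 selectin and other leukocyte adhesion genes found in the tables, 7 were tested, and 3 rose and 1 fell by edgeR (3 and 2 with library totals alone). Over all 11916 genes tested, 34.0% rose and 35.1% fell by edgeR. Siglec1, the sialic acid receptor CD169 of macrophages, rose from 7.33 ± 0.678 to 222 ± 55.4 CPM (SD, n = 3, adjusted p = 3.00e-10). Cd44, the hyaluronan receptor, rose 2.74-fold and Alcam 2.09-fold. Cd48 fell 1.57-fold (adjusted p = 0.0216), and this call held in 2 of the 6 fits that left out 1 library, with an adjusted p of up to 0.0801. Selplg, the selectin ligand PSGL-1, had a log2 fold change of -0.02 (adjusted p = 0.869).

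Of 16 transcription factors known to act on leukocyte integrin genes, 12 were tested, and 2 rose and 6 fell (1 and 8 with library totals alone). The shares over all genes tested were 34.0% higher and 35.1% lower by edgeR. Fos fell from 206 ± 52.7 to 50.5 ± 2.10 CPM (SD, n = 3, edgeR adjusted p = 1.85e-07). Runx1 fell 2.97-fold, Fli1 2.29-fold, Cebpa 1.96-fold and Elf1 1.78-fold, and Ets2 rose 3.59-fold. Spi1, which encodes PU.1, was at 243 ± 0.548 CPM in None and 262 ± 14.1 CPM in LPS (adjusted p = 0.167). Whether these changes bear on the integrin genes was not tested.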
